A study of Mus musculus with 20 samples.

Results

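Integrins are the cell's receptors for the extracellular matrix, and laminins are among the matrix proteins they bind; the genes of both families were followed here in sorted adipocyte precursor cells. Every row of the count table whose symbol names an integrin alpha chain (Itga), an integrin beta chain (Itgb) or a laminin chain (Lama, Lamb or Lamc) was taken. That gave 37 of 33899 genes, of which 26 were integrin chains (18 alpha, 8 beta) and 11 were laminin chains (5 alpha, 3 beta, 3 gamma).

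The study compared precursor cells of 2 white fat depots after 3 days of high-fat feeding. The groups were visceral perigonadal fat on high-fat diet (VWAT HFD), visceral fat on standard diet (VWAT SD), inguinal subcutaneous fat on high-fat diet (SWAT HFD) and subcutaneous fat on standard diet (SWAT SD), with 5 libraries each. All mice were C57Bl6/J females aged 8 to 11 weeks, and each library pooled the tissue of 3 mice, so single animals cannot be seen. HFD was Research Diets D12492 with 60% lard, given for 3 days, and SD was the Harlan 2018S chow. The SD libraries carry the label day 0, so diet and day of sampling cannot be told apart from the labels. Cells were sorted as CD45- and CD31-, CD29+, CD34+, Sca1+, and either CD24- or CD24+. CD29 is the protein of Itgb1, so 1 member was itself part of the gate in all 4 groups.

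An integrin is a pair of 1 alpha and 1 beta chain, and the pair sets which ligand is bound: collagens, laminins, or proteins such as fibronectin and vitronectin that carry the short RGD motif. A laminin is a trimer of 1 alpha, 1 beta and 1 gamma chain that assembles into the basement membrane. In fat tissue, basement membrane surrounds adipocytes and vessels, and precursor cells lie close to vessels within collagen-rich matrix.

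Depth ranged from 14.4 to 47.5 M reads on genes per library. The summed level of 5 precursor markers (Pdgfra, Cd34, Ly6a, Dcn, Lum) was 10518 to 15503 CPM (read counts scaled to an equal total in every library) in VWAT HFD, against 16056 CPM in VWAT SD 1 and 6044 to 7676 CPM in the other 4 VWAT SD libraries. It was 10227 to 11964 CPM in SWAT HFD, against 6739 to 9932 CPM in SWAT SD. Depot markers went against the label in 1 library of each depot on SD. The 5 visceral markers (Wt1, Tcf21, Gata4, Gata6, Bnc1) summed to 257 to 346 CPM in VWAT HFD and 23.2 to 34.9 CPM in SWAT HFD, but to 19.6 CPM in the library labelled VWAT SD 5 and 197 CPM in the library labelled SWAT SD 5. The 5 subcutaneous markers (Shox2, En1, Tbx15, Hoxc10, Hoxc9) summed to 142 CPM in the library labelled VWAT SD 5 and to 37.7 CPM in the library labelled SWAT SD 5. Results are therefore given with all 20 libraries and, where it matters, with the 18 others. Libraries also differed in how read counts ran with the guanine and cytosine (GC) content of genes: the correlation of a library's deviation with gene GC content was -0.63 to -0.22 in VWAT HFD, -0.54 to 0.61 in VWAT SD, -0.56 to 0.05 in SWAT HFD and -0.16 to 0.62 in SWAT SD. A fit of the 18 libraries with that trend removed (GC-corrected) stands beside the results. VWAT SD 1 was the one VWAT SD library with a GC correlation of -0.54.

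Reads per kilobase of exon were highest for a small part of each family. On the scale of CPM per kb over all libraries, the laminin chains were led by Lamc1 (289), Lamb2 (202), Lama4 (178), Lamb1 (178) and Lama2 (84.7). These are the chains of the laminins made by mesenchymal and vascular cells. Lamc1 held 98.2% of the gamma-chain level per kb in VWAT HFD and 96.8% in VWAT SD, against 93.6% in SWAT HFD and 93.0% in SWAT SD. Lama4, the alpha chain of vessel and adipocyte laminins, held 70.8% of the alpha-chain level per kb in VWAT HFD and 72.9% in VWAT SD, and 60.6% in SWAT HFD and 61.7% in SWAT SD. Lama2, the muscle and nerve alpha chain, made up most of the remainder, with 28.9% in VWAT HFD, 26.3% in VWAT SD, 38.9% in SWAT HFD and 37.2% in SWAT SD. The epithelial chains Lama3, Lama5 and Lamb3, the embryonic chain Lama1 and the chain Lamc3 were each under 10 CPM per kb in every group.

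The integrin chains with the highest levels per kb were Itga5 (181 CPM per kb), the alpha chain of the fibronectin receptor, Itgb5 (126), a partner of Itgav, Itgb1 (125), the common beta chain that pairs with most alpha chains, and Itga11 (50.6), a collagen receptor chain of mesenchymal cells. Itgav and Itgb3, which pair to form a vitronectin receptor, stood at 16.3 and 16.2 CPM per kb. Itgb7, a beta chain best known from lymphocytes, stood at 12.6 CPM per kb. Of the leukocyte alpha chains, Itgal, Itgam and Itgax stayed under 3 CPM in each library, and Itgad and Itgae never passed 10 and 5 reads. Those 2 were the only members that did not pass the filter on low counts, which leaves 35 tested. The counting was not stated to use strand, so the counts of Itga4, Itga7, Itga8, Itgb4, Lama2, Lama3 and Lamc3, which overlap a gene on the opposite strand in GENCODE, are uncertain, as are those of Itga1, Itga10 and Itgam, which overlap one on the same strand.

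**Figure D1:**
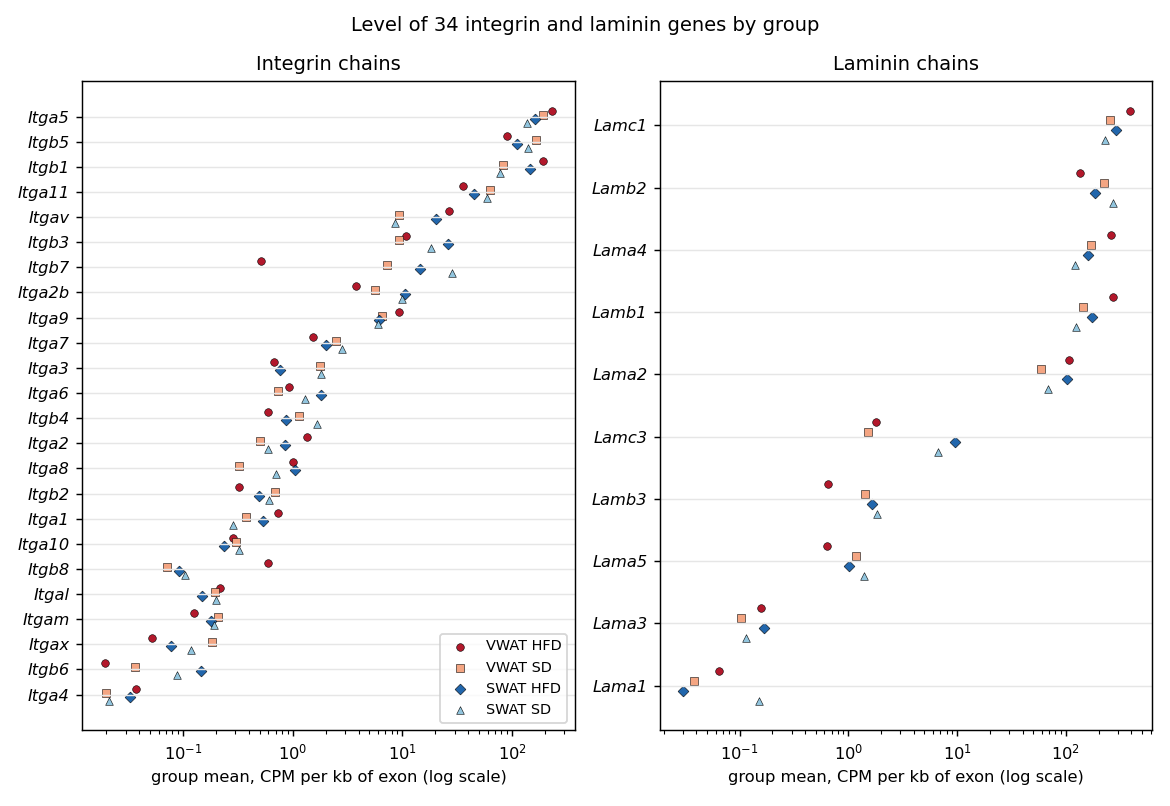
Group mean level of 34 of the 35 tested members in CPM per kb of exon on a log scale, integrins left and laminins right, with a marker per group. Lamc1, Lamb2, Lama4 and Lamb1 stand highest among the laminins and Itga5, Itgb5 and Itgb1 among the integrins, and Itgb7 and Itgb8 show the widest spacing between groups.

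Itgb7 had the largest fall and Itgb8 the largest rise among the members called below for diet in VWAT with 20 libraries, and both differed between depots on HFD. The 250 bases before their transcription start are shown beside those of Itga2b, a further member that differed between depots, and of Itgb1, with each CG dinucleotide in capitals, from RefSeq (GRCm38.p6, the gene's own strand). Itgb7 (chr15:102231936-102232185, minus strand) and Itga2b (chr11:102469884-102470133, minus strand) were lower in visceral than in subcutaneous cells. Itgb8 (chr12:119238277-119238526, minus strand) showed the largest diet difference upward, and Itgb1 (chr8:128685404-128685653, plus strand) encodes the gate marker. These coordinates belong to GRCm38.p6, whereas the submitters' processing notes name mm9 for the counts.
Itgb7: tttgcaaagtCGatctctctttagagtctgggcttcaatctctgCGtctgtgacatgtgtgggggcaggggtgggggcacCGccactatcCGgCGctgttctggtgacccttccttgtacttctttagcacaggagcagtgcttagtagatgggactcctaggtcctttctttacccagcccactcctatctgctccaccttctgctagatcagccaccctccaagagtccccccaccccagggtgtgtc
Itga2b: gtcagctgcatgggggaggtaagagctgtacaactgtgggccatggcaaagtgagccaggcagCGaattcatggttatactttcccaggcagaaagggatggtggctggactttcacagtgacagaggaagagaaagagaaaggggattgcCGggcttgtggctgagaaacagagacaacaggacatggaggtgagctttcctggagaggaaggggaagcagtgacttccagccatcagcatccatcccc
Itgb8: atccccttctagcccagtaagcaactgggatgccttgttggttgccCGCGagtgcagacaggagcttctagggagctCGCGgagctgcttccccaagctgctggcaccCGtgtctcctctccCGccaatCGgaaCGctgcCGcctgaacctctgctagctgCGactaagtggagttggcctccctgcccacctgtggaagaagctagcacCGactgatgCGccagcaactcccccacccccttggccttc
Itgb1: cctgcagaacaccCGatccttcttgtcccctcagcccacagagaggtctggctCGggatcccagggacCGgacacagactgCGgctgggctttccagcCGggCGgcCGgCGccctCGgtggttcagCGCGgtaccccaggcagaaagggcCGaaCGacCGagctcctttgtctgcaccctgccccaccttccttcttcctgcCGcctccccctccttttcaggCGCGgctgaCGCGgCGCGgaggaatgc
The windows of Itgb7 and Itga2b hold 5 and 2 CG dinucleotides, and those of Itgb8 and Itgb1 hold 12 and 21. Over all 32851 mouse promoter windows the median was 6, and over the 23 members with a window it was 11. Among the same members, Lama2 had 0, and Itga3 had the most, 22. On either strand, the core AGGTCA of the estrogen response element was in 0 of the 26 member windows (250 bases before to 50 after the start), against 16.3% of all windows. The AP-1 motif TGANTCA was in 3 (Itga3, Itga9, Itgax), against 7.81% of all windows. The GATA motif AGATAA was in 1 and the TATA motif TATAAA in 0, against 11.2% and 13.6% of all windows. Member windows had a median GC content of 58.8%, against 52.7% over all windows. A match or its absence in a window says nothing of binding.

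In visceral precursors 14 of 35 members differed after high-fat feeding. With all 20 libraries, 8 rose in VWAT HFD relative to VWAT SD (Itgb8, Itga8, Itgav, Itga2, Itgb1, Itga1, Lamb1, Lama2) and 6 fell (Itgb7, Itga3, Lamb3, Itgb5, Itga11, Lamb2), at an adjusted p under 0.05 in edgeR's quasi-likelihood test. Those are 22.9% and 17.1% of the tested members, where 19.7% of all 14242 tested genes rose and 26% fell, so the members moved about as often as other genes. The median log2 fold change was 0.09 over the members and -0.03 over all genes. The precursor markers named above moved with diet in the same libraries as several members that rose, with VWAT SD 1 among or above the VWAT HFD libraries; their part in these differences was not tested. In bulk RNA from sorted cells, fewer cells of one kind and less RNA per cell cannot be told apart.

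Itgb1, the gate marker CD29, had 798, 589, 615, 834 and 829 CPM in VWAT HFD libraries 1 to 5, against 685, 190.4, 272, 233 and 212 CPM in VWAT SD libraries 1 to 5. All VWAT HFD libraries stood above all VWAT SD libraries except VWAT SD 1, which lay among them. The log2 fold change was 1.10 ± 0.27 (SE; edgeR adjusted p = 0.00509), and 0.47 ± 0.14 with 18 GC-corrected libraries (edgeR adjusted p = 0.0289).

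The RGD-binding alpha chains pair with Itgb1 and other beta chains to bind fibronectin, vitronectin and latent TGF-beta. Itgav, the alpha chain of the vitronectin receptors, had 244, 144, 139, 183 and 229 CPM in VWAT HFD, against 165, 32.3, 55.0, 42.2 and 36.7 CPM in VWAT SD. VWAT SD 1 again stood with the HFD libraries, and the other 4 VWAT SD libraries were all lower. Itgav rose by 1.41 ± 0.36 on the log2 scale (SE; edgeR adjusted p = 0.00645), and by 0.68 ± 0.22 with 18 GC-corrected libraries (edgeR adjusted p = 0.0449). Itga8, a nephronectin receptor chain, had 6.15, 5.28, 4.46, 6.01 and 7.60 CPM in VWAT HFD, against 3.43, 0.468, 1.30, 0.821 and 3.34 CPM in VWAT SD. The groups did not overlap, and Itga8 rose by 1.56 ± 0.44 on the log2 scale (SE; edgeR adjusted p = 0.00996). Itga5, the fibronectin receptor chain and the most abundant alpha chain per kb, had 892, 1212, 1054, 1031 and 902 CPM in VWAT HFD, against 945, 858, 1281, 906 and 236 CPM in VWAT SD. Its groups overlapped, with the lowest value in the library labelled VWAT SD 5, and the log2 fold change was 0.09 ± 0.31 (SE; edgeR adjusted p = 0.832). Itga2b, the platelet alpha chain, had a log2 fold change of -0.70 (edgeR adjusted p = 0.0872), which turned to 0.48 with 18 GC-corrected libraries (edgeR adjusted p = 0.0827) and passed in neither fit.

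Among the beta chains that pair with Itgav, the directions were opposite. Itgb8, whose pair with Itgav activates latent TGF-beta, had 4.03, 2.77, 5.90, 5.27 and 7.24 CPM in VWAT HFD, against 1.94, 0.401, 0.130, 0.316 and 0.248 CPM in VWAT SD. The groups did not overlap, and the highest VWAT SD value was that of VWAT SD 1. Itgb8 rose by 2.89 ± 0.58 on the log2 scale (SE; edgeR adjusted p = 0.00311), the largest rise among the members, and by 2.02 ± 0.43 with 18 GC-corrected libraries (edgeR adjusted p = 0.00811). Itgb5, an abundant partner of Itgav, had 263, 356, 399, 252 and 254 CPM in VWAT HFD, against 431, 612, 637, 585 and 520.2 CPM in VWAT SD. Every VWAT HFD value lay below every VWAT SD value, and Itgb5 fell by 1.03 ± 0.22 on the log2 scale (SE; edgeR adjusted p = 0.00348). With 18 GC-corrected libraries the Itgb5 log2 fold change was -0.33 ± 0.13 and did not pass (edgeR adjusted p = 0.0895). Itgb3 had a log2 fold change of 0.09 with 20 libraries (edgeR adjusted p = 0.796) and of 0.71 ± 0.24 with 18 GC-corrected libraries, where it passed (edgeR adjusted p = 0.0469). Itgb6, an epithelial chain at no more than 1.12 CPM in any library, did not pass in either fit.

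The 4 collagen-binding alpha chains divided as well. Itga2, a receptor chain for fibrillar collagen, had 12.9, 7.63, 6.55, 9.44 and 11.5 CPM in VWAT HFD, against 8.15, 1.54, 1.49, 4.23 and 2.44 CPM in VWAT SD. Apart from VWAT SD 1, every VWAT SD value lay below every VWAT HFD value, and Itga2 rose by 1.32 ± 0.34 on the log2 scale (SE; edgeR adjusted p = 0.00665). Itga1, which binds basement membrane collagen, rose by 0.83 ± 0.32 (edgeR adjusted p = 0.0412), a call lost without any 1 of VWAT HFD 4, VWAT HFD 5, VWAT SD 3, VWAT SD 4 or the library labelled VWAT SD 5. Itga11 had 111, 202, 259, 164 and 145 CPM in VWAT HFD, against 351, 325, 305, 260.2 and 329 CPM in VWAT SD. All VWAT HFD values were below all VWAT SD values, and Itga11 fell by 0.97 ± 0.21 on the log2 scale (SE; edgeR adjusted p = 0.00366). None of the 4 passed with 18 GC-corrected libraries, where the log2 fold changes were 0.60 for Itga2, -0.10 for Itga1, -0.41 for Itga11 and 0.28 for Itga10.

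Of the laminin-binding chains Itga3, Itga6, Itga7 and Itgb4, 1 passed. Itga3, an alpha chain of epithelial laminin receptors, had 2.07, 2.91, 6.04, 2.82 and 3.79 CPM in VWAT HFD, against 2.81, 6.35, 8.38, 14.9 and 13.9 CPM in VWAT SD. The groups overlapped, and Itga3 fell by 1.53 ± 0.52 on the log2 scale (SE; edgeR adjusted p = 0.0216), a call lost without VWAT HFD 1, VWAT HFD 4 or VWAT SD 4. Itga7, the muscle laminin receptor chain, had a log2 fold change of -0.88 (edgeR adjusted p = 0.0603) and Itgb4, the hemidesmosome chain, one of -1.05 (edgeR adjusted p = 0.0727). With 18 GC-corrected libraries the log2 fold changes were -0.46 for Itga3, -0.14 for Itga7 and 0.21 for Itgb4, and none passed.

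Of the 5 tested leukocyte chains, Itgb7 fell. It had 1.20, 1.85, 2.04, 0.513 and 1.34 CPM in VWAT HFD, against 3.31, 3.47, 3.83, 6.00 and 81.5 CPM in VWAT SD. The library labelled VWAT SD 5 lay far above the rest, and all 5 VWAT SD values were above all 5 VWAT HFD values. The log2 fold change was -3.84 ± 0.94 with 20 libraries (SE; edgeR adjusted p = 0.00581), -1.77 ± 0.35 with the 18 (edgeR adjusted p = 0.00507) and -0.98 ± 0.26 with the 18 GC-corrected (edgeR adjusted p = 0.0199). Itgal, Itgam, Itgax and Itgb2 did not pass, with log2 fold changes of -0.04, -0.93, -2.05 and -1.27. The 11 leukocyte markers summed to 11.1 to 37.4 CPM in VWAT HFD and 9.62 to 55.4 CPM in VWAT SD, and Ptprc, which encodes CD45, was at most 1.44 CPM in VWAT HFD and at most 1.95 CPM in VWAT SD. Their part in the Itgb7 difference was not tested.

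**Figure D2:**
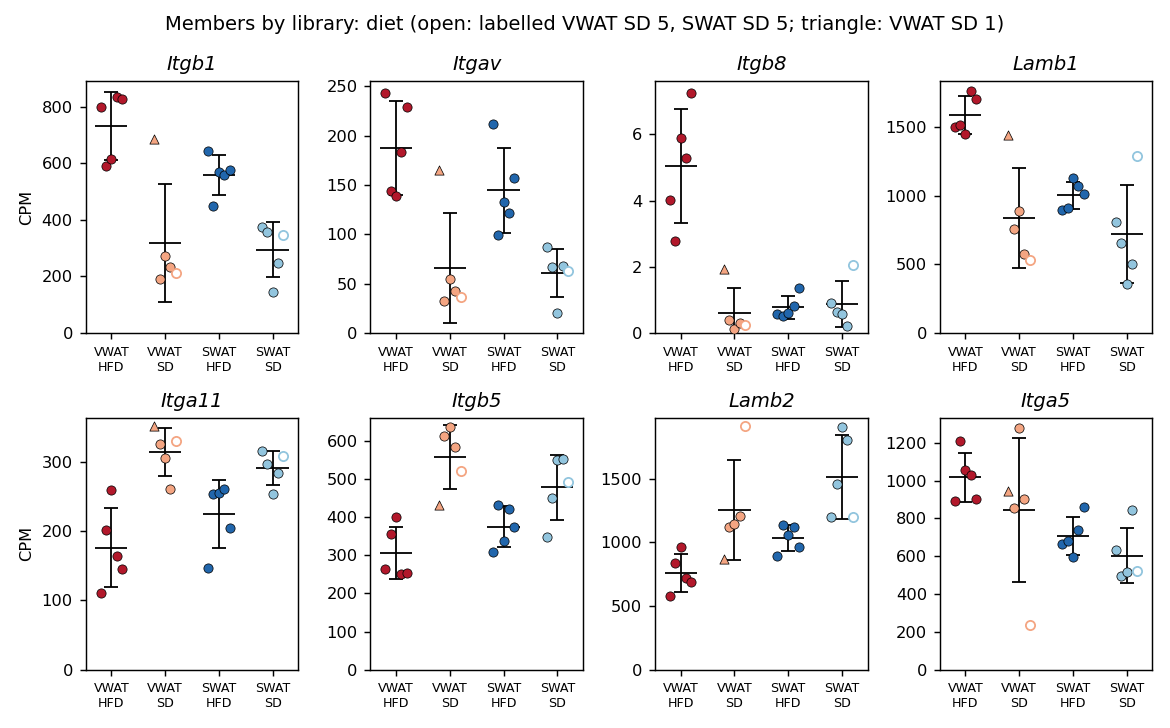
CPM of 8 members in each library by group, with the group mean and SD as bars; open circles mark the library labelled VWAT SD 5 and that labelled SWAT SD 5, and the triangle is VWAT SD 1. Itga11 and Itgb5 are lower in all VWAT HFD than in all VWAT SD libraries, and VWAT SD 1 lies among the VWAT HFD libraries for Itgb1 and Itgav.

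Of the laminin chains, Lama2 and Lamb1 rose and Lamb2 and Lamb3 fell in VWAT HFD. Lamb1 and Lamb2 are alternative beta chains of otherwise identical trimers. Lamb1 had 1505, 1514, 1449, 1766 and 1703 CPM in VWAT HFD, against 1443, 759, 887, 578 and 536 CPM in VWAT SD. The groups did not overlap, VWAT SD 1 being just below the lowest VWAT HFD library, and Lamb1 rose by 0.79 ± 0.26 on the log2 scale (SE; edgeR adjusted p = 0.0205). The Lamb1 call was lost without VWAT SD 4 (0.69) or the library labelled VWAT SD 5 (0.64), and held with 18 GC-corrected libraries (0.93 ± 0.26; edgeR adjusted p = 0.0248). Lamb2 had 576, 837, 964, 721 and 688 CPM in VWAT HFD, against 869, 1124, 1147, 1210 and 1913 CPM in VWAT SD. The highest VWAT HFD value stood above that of VWAT SD 1 only, and Lamb2 fell by 0.85 ± 0.22 on the log2 scale (SE; edgeR adjusted p = 0.00659). With 18 GC-corrected libraries the direction of Lamb2 turned, to a log2 fold change of 0.15 ± 0.13 (edgeR adjusted p = 0.478). Lamb1 thus held 66.9% ± 5.43 of the beta-chain level per kb in VWAT HFD and 39.2% ± 14.9 in VWAT SD (SD, n = 5 each), with GC contents of 52.5% for Lamb1 and 58.8% for Lamb2.

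Lama4, the most abundant alpha chain, had 1568, 1532, 1510, 1637 and 1651 CPM in VWAT HFD, against 1579, 1012, 1218, 832 and 495 CPM in VWAT SD. VWAT SD 1 lay among the VWAT HFD libraries and the other VWAT SD libraries were lower, but Lama4 did not pass (log2 fold change 0.47 ± 0.29, SE; edgeR adjusted p = 0.182). Lama2 had 832, 969, 1078, 1196 and 1185 CPM in VWAT HFD, against 1003, 425, 576, 367 and 539 CPM in VWAT SD. VWAT SD 1 lay within the VWAT HFD range and the others below it, and Lama2 rose by 0.75 ± 0.24 on the log2 scale (SE; edgeR adjusted p = 0.0186), a call lost without VWAT SD 4 (0.63). Lamc1, the gamma chain of most laminins, had 2721, 3088, 2737, 3049 and 3230 CPM in VWAT HFD, against 2927, 1741, 2023, 1547 and 1406 CPM in VWAT SD. All VWAT SD libraries but VWAT SD 1 lay below the VWAT HFD libraries, and the log2 fold change was 0.49 ± 0.22 (SE; edgeR adjusted p = 0.079), reaching 0.72 ± 0.24 with 18 GC-corrected libraries (edgeR adjusted p = 0.0444). Lamb3, an epithelial chain, had 1.60, 4.23, 4.83, 2.62 and 3.21 CPM in VWAT HFD, against 5.96, 5.41, 4.29, 1.70 and 18.8 CPM in VWAT SD. The groups overlapped, and the fall of 1.20 ± 0.45 on the log2 scale (SE; edgeR adjusted p = 0.0345) became -0.57 and was not called without the library labelled VWAT SD 5. The Lamb3 call was also lost without VWAT HFD 1, VWAT HFD 4, VWAT HFD 5 or VWAT SD 2, with log2 fold changes of -1.24 to -0.99. The library labelled VWAT SD 5 also had the highest summed level of the 7 mammary and skin epithelial markers in VWAT SD, 167 CPM, against 0.851 to 4.99 CPM in the other VWAT SD libraries.

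Members that rose and members that fell had different GC contents. The 8 risers had 40.4 to 52.5% GC and the 6 fallers 55.5 to 58.8%. Over the 35 members, Spearman's rho of log2 fold change with GC content was -0.68 in VWAT and -0.72 in SWAT, against -0.69 in each over all genes, and -0.14 and -0.12 with 18 GC-corrected libraries (a description over genes that share the same libraries). Under that correction 9 members rose in VWAT HFD (Itgb8, Lamc3, Itga8, Lama3, Lamb1, Lamc1, Itgb3, Itgav, Itgb1) and 1 fell (Itgb7), where 6.1% of all genes rose and 8.59% fell. With the 18 libraries and no correction 8 rose and 7 fell, where 13.8% of all genes rose and 22.7% fell. Itga8, Itgav, Itgb1, Itgb8 and Lamb1 rose and Itgb7 fell in the fits with 20 libraries, with 18 and with 18 GC-corrected. With 20 GC-corrected libraries Itga8 did not pass (edgeR adjusted p = 0.0741), and with the share of reads on no feature as a covariate neither Itga8 nor Lamb1 passed (edgeR adjusted p = 0.0511 and 0.106). Leaving out VWAT SD 4 alone left 5 members that rose, where 1857 of 14467 genes rose. Leaving out VWAT SD 1 alone raised the number of members that fell to 12, where 4217 of 14411 genes fell. It also raised the log2 fold changes of Itgb1 and Itgav to 1.55 and 2.03.

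**Figure D3:**
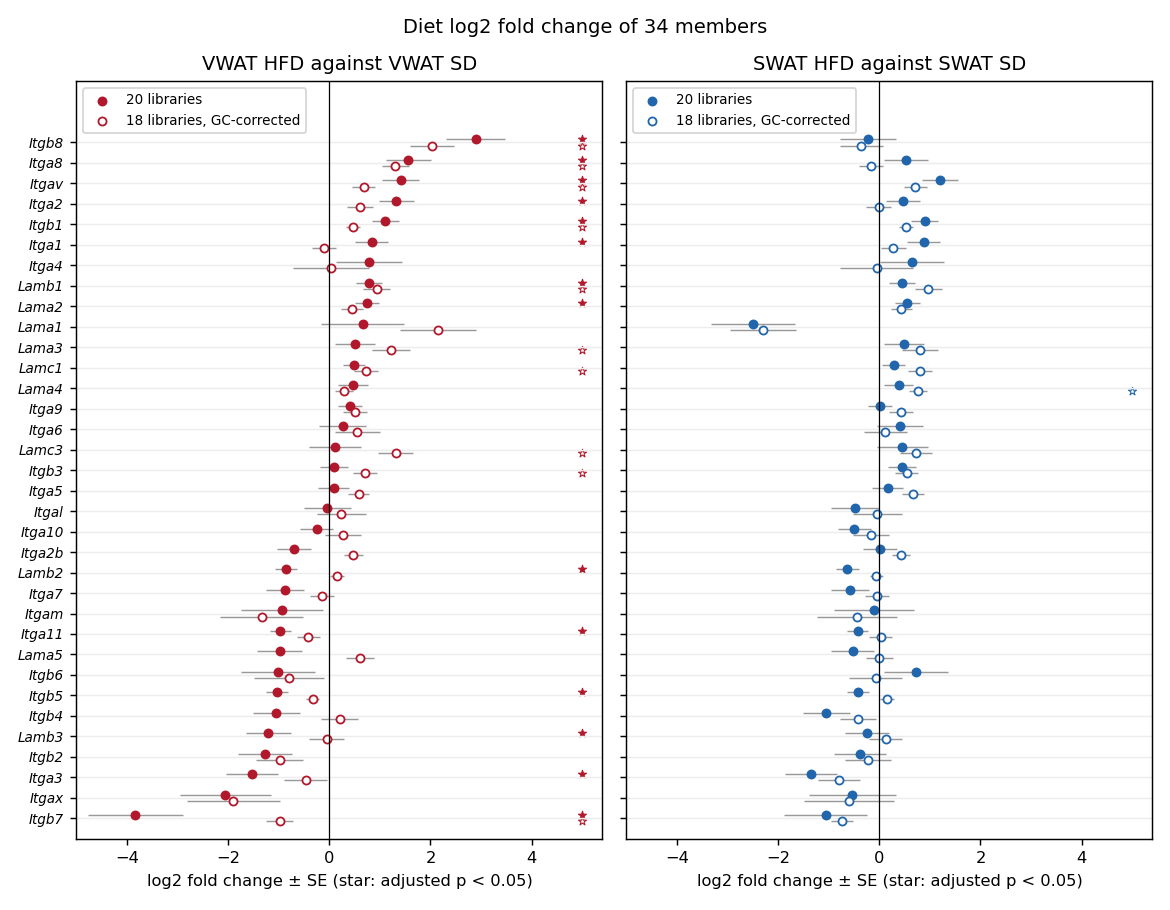
Diet log2 fold change with its SE for 34 of the 35 tested members, in VWAT (left) and SWAT (right), with 20 libraries (filled) and 18 GC-corrected libraries (open); a star marks an adjusted p under 0.05. In VWAT with 20 libraries, Itgb8 has the largest rise and Itgb7 the largest fall. Lamb2 in VWAT sits on opposite sides of 0 in the 2 fits.

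**Figure D4:**
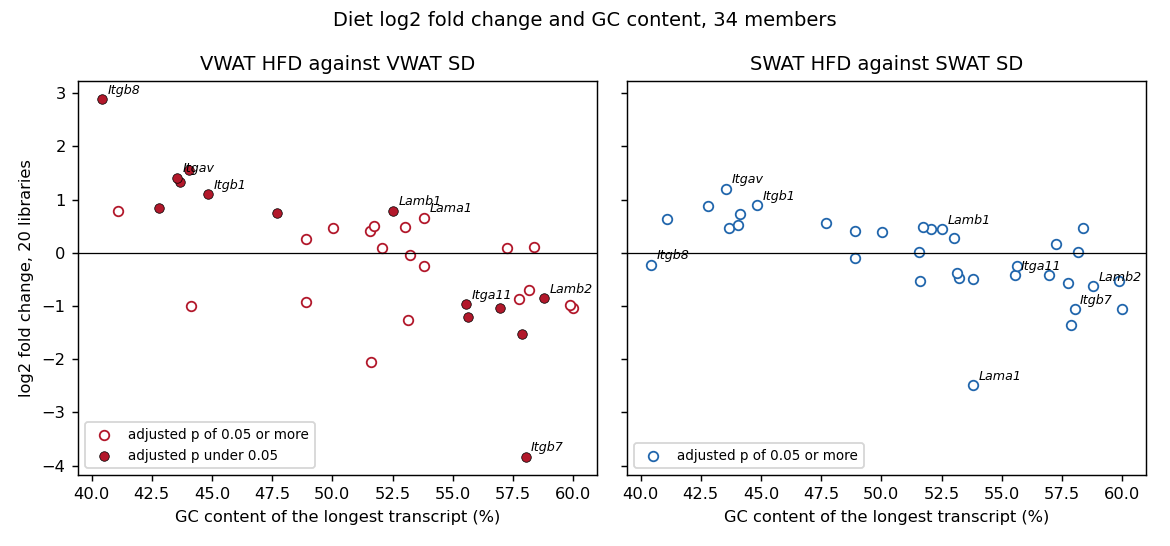
Diet log2 fold change of 34 of the 35 tested members against the GC content of their longest transcript, in VWAT (left) and SWAT (right); filled points passed an adjusted p of 0.05. The members that rose in VWAT lie at 40.4 to 52.5% GC and those that fell at 55.5 to 58.8% GC.

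In subcutaneous precursors no member passed. In SWAT HFD against SWAT SD 0 of 35 rose and 0 fell in edgeR, where 0.857% of all genes rose and 0.702% fell. The unadjusted p was under 0.05 for 8 members and for 4877 of all 14242 tested genes. DESeq2 called 3 members higher and 3 lower, where it called 954 of all genes higher and 1068 lower. Without SWAT SD 1 edgeR called 2 members higher and 3 lower, where 979 of 14390 genes were higher and 1206 lower. Without VWAT SD 1, through the shared estimate of the spread, it called 3 members higher and 3 lower. In that fit 1716 of 14411 genes were higher and 1646 lower. The members nearest the threshold were Itgb1 and Itgav, and both rank among the risers in VWAT. Itgb1 had 644, 449, 569, 558 and 575 CPM in SWAT HFD, against 374, 357, 144, 247 and 347 CPM in SWAT SD. No SWAT SD value reached a SWAT HFD value, and the log2 fold change was 0.89 ± 0.27 (SE; edgeR adjusted p = 0.0642). Itgav had 212, 98.8, 133, 122 and 157 CPM in SWAT HFD, against 87.6, 66.4, 20.7, 67.6 and 62.9 CPM in SWAT SD. Its groups did not overlap either, and the log2 fold change was 1.20 ± 0.36 (SE; edgeR adjusted p = 0.0659). Itgb5 and Itga11 had log2 fold changes of -0.42 and -0.43, and Lamb1 and Lamb2 of 0.45 and -0.63. Itgb7 had 29.4, 41.6, 27.0, 56.7 and 38.9 CPM in SWAT HFD, against 59.6, 96.5, 115, 105 and 2.92 CPM in SWAT SD. Without the library labelled SWAT SD 5 every SWAT SD value was above every SWAT HFD value, and with the 18 libraries Itgb7 fell by 1.37 ± 0.32 on the log2 scale (SE; edgeR adjusted p = 0.0498), where 0.355% of all genes rose and 0.286% fell. With 18 GC-corrected libraries 1.06% of all genes rose and 0.432% fell, Lama4 rose by 0.77 ± 0.18 (edgeR adjusted p = 0.0345), and Itgb7 did not pass (edgeR adjusted p = 0.0878).

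The diet effect was not shown to differ between depots for any member. The interaction of diet and depot called 0 of 35 members and 0% of all genes in edgeR. An unadjusted p under 0.05 was seen for 3 members and for 605 of all 14242 tested genes. DESeq2 called 0 members and 0 genes. The diet log2 fold change had the same sign in both depots for 30 members (16 higher, 14 lower) and opposite signs for 5. Those with the smallest interaction p were Itgb8 and Lama1. Itgb8 had 0.565, 0.503, 0.612, 0.825 and 1.37 CPM in SWAT HFD, against 0.918, 0.639, 0.577, 0.209 and 2.06 CPM in SWAT SD, with overlapping groups. Its diet log2 fold change was larger in VWAT than in SWAT by 3.11 ± 0.79 (SE; edgeR adjusted p = 0.942). Lama1, the embryonic alpha chain, had 0.598, 0.892, 0.464, 0.741 and 0.397 CPM in VWAT HFD, against 0.118, 0.468, 0.00, 0.126 and 1.11 CPM in VWAT SD. It had 0.215, 0.0838, 0.489, 0.340 and 0.295 CPM in SWAT HFD, against 0.584, 0.479, 2.21, 3.83 and 0.140 CPM in SWAT SD. SWAT SD 3 and SWAT SD 4 stood above every other library, the diets overlapped within each depot, and the interaction was 3.15 ± 1.16 (SE; edgeR adjusted p = 0.942).

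On high-fat diet 7 members differed between the depots. In VWAT HFD relative to SWAT HFD 1 member was higher (Itgb8) and 6 were lower (among them Itgb7, Itgb6, Lamc3, Itga2b and Itgb3), which is 2.86% and 17.1% of the 35, where 2.82% of all genes were higher and 3.63% lower. With the 18 libraries 3 were higher and 7 lower, where 4.52% of all genes were higher and 6.23% lower, and with 18 GC-corrected libraries 5 were higher and 7 lower, where 6.68% of all genes were higher and 9.03% lower. The 7 members called with 20 libraries were called in both of these fits too. With the replicate number as a block, only Itgb8 was higher and Itgb3 lower (edgeR adjusted p = 0.0380 and 0.0458). That fit called 107 of all genes higher and 165 lower, and whether the numbers pair the depots is not settled. The median log2 fold change was -0.19 over the members and -0.01 over all genes.

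Itgb7 had 1.20, 1.85, 2.04, 0.513 and 1.34 CPM in VWAT HFD, against 29.4, 41.6, 27.0, 56.7 and 38.9 CPM in SWAT HFD. The lowest SWAT HFD library stood far above the highest VWAT HFD library, and the log2 fold change was -4.82 ± 0.98 (SE; edgeR adjusted p = 0.00837). Its known partners Itga4 and Itgae were at most 0.618 CPM and 0.134 CPM in the HFD libraries of both depots. The leukocyte markers summed to 11.1 to 37.4 CPM in VWAT HFD and 13.3 to 26.8 CPM in SWAT HFD. The T cell marker Cd3e was at 0 in some libraries of each group. The part of leukocytes in the Itgb7 difference between depots was not tested.

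Itgb3, the beta chain of the vitronectin receptor and of the platelet fibrinogen receptor, had 72.2, 77.7, 41.0, 56.2 and 62.3 CPM in VWAT HFD, against 220.1, 159, 101, 121 and 154 CPM in SWAT HFD. All VWAT HFD values lay below all SWAT HFD values, and the log2 fold change was -1.28 ± 0.28 (SE; edgeR adjusted p = 0.0104). Itga2b, which pairs with Itgb3 in platelets, had 14.1, 14.7, 13.6, 10.8 and 11.3 CPM in VWAT HFD, against 35.5, 48.7, 23.6, 34.1 and 41.0 CPM in SWAT HFD. These groups did not overlap either, and the log2 fold change was -1.51 ± 0.34 (SE; edgeR adjusted p = 0.0113). The 4 platelet markers (Pf4, Ppbp, Gp9, Gp1ba) summed to 0.462 to 1.53 CPM in VWAT HFD and 0.194 to 1.13 CPM in SWAT HFD. The part of platelets in the Itga2b and Itgb3 differences was not tested.

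Among the laminins, the gamma chain Lamc3 was lower in VWAT HFD. Lamc3 had 3.62, 13.3, 13.2, 13.3 and 9.56 CPM in VWAT HFD, against 45.9, 59.3, 53.2, 72.0 and 48.7 CPM in SWAT HFD. The groups were far apart, and the log2 fold change was -2.39 ± 0.53 (SE; edgeR adjusted p = 0.0111). Itgb6 had 0.0544, 0.0660, 0.0929, 0.314 and 0.0611 CPM in VWAT HFD, against 0.645, 0.782, 0.856, 1.12 and 1.05 CPM in SWAT HFD. Its groups did not overlap at this low level, and the log2 fold change was -2.86 ± 0.70 (SE; edgeR adjusted p = 0.0177), lost without VWAT HFD 1, 2 or 5. The 7 mammary and skin epithelial markers summed to 0.408 to 2.94 CPM in VWAT HFD and 11.0 to 86.7 CPM in SWAT HFD. Krt5, Krt15 and Krt17 were at 0 in some VWAT HFD libraries, and the part of these cells in the differences was not tested. In SWAT HFD libraries 1 to 5 the epithelial sum was 11.0, 16.0, 86.7, 66.0 and 45.3 CPM. The lowest Itgb6 value was in SWAT HFD 1, which had the lowest sum, and the highest was in SWAT HFD 4, which had the second highest. In SWAT HFD 3, which had the highest sum, Itgb6 was in the middle of its group (0.856 CPM). Within SWAT HFD, Itgb7 was highest in SWAT HFD 4 (56.7 CPM) and lowest in SWAT HFD 3 (27.0 CPM). In SWAT SD libraries 1 to 5 the epithelial sum was 41.2, 63.3, 123, 176 and 0.701 CPM. Itgb7 in those libraries was 59.6, 96.5, 115, 105 and 2.92 CPM. The library labelled VWAT SD 5 had an epithelial sum of 167 CPM and an Itgb7 level of 81.5 CPM. The part of epithelial cells in the Itgb7 level was not tested. The 4 Schwann cell markers summed to 4.03 to 5.41 CPM in VWAT HFD and 22.2 to 30.4 CPM in SWAT HFD, without overlap, and to 55.8 CPM in the library labelled VWAT SD 5 and 8.46 CPM in the library labelled SWAT SD 5. Mbp made up most of that sum, and Sox10 was at 0 in some VWAT HFD libraries. Of the 7 mesothelial markers, Krt19, Krt8 and Krt18, which epithelia also express, were lower in VWAT HFD than in SWAT HFD, and Msln, Upk3b, Upk1b and Lrrn4 were higher in level. The part of the Schwann and mesothelial markers in the depot differences, Itgb7 and Lamc3 included, was not tested.

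Itgb8 was the member that was higher in VWAT HFD, with 4.03, 2.77, 5.90, 5.27 and 7.24 CPM, against 0.565, 0.503, 0.612, 0.825 and 1.37 CPM in SWAT HFD. No SWAT HFD library reached the lowest VWAT HFD library, and the log2 fold change was 2.67 ± 0.57 (SE; edgeR adjusted p = 0.00933). Lama4 and Lamb1, among the most abundant chains, were higher in VWAT HFD with 18 libraries, by 0.70 ± 0.17 and 0.66 ± 0.20 on the log2 scale (SE; edgeR adjusted p = 0.00981 and 0.0326), but not with 20 (edgeR adjusted p = 0.168 and 0.147).

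On standard diet the depot comparison rested on the library labelled VWAT SD 5 and that labelled SWAT SD 5. With all 20 libraries 0 of 35 members were called in edgeR, where 0% of all genes were called in either direction. There, 7 members and 1009 of all 14242 tested genes had an unadjusted p under 0.05. DESeq2 called 0 members, where it called 6 of all genes higher and 3 lower. With the 18 libraries, 3 were higher in VWAT SD (Lama4, Itga5, Lamb1) and 6 lower (Itgb7, Lama1, Lamc3, Itga8, Itgb3, Itga2b), where 3.46% of all genes were higher and 4.99% lower. With 18 GC-corrected libraries 2 were higher and 10 lower, where 5.46% of all genes were higher and 6.89% lower. Itgb7 had 3.31, 3.47, 3.83, 6.00 and 81.5 CPM in VWAT SD, against 59.6, 96.5, 115, 105 and 2.92 CPM in SWAT SD. The fifth library of each group stood within the range of the other depot or near it, and without that pair the log2 fold change was -4.42 ± 0.39 (SE; edgeR adjusted p = 1.49e-07). Lamc3 had 2.81, 13.6, 7.08, 5.18 and 16.1 CPM in VWAT SD, against 63.5, 32.4, 45.6, 48.4 and 4.35 CPM in SWAT SD. Without the 2 libraries its groups did not overlap, and the log2 fold change was -2.57 ± 0.45 (SE; edgeR adjusted p = 0.000474). Itgb3 had 51.7, 43.9, 34.7, 31.3 and 110.4 CPM in VWAT SD, against 152, 92.5, 88.9, 124 and 74.9 CPM in SWAT SD. Without the pair the groups did not overlap, and the log2 fold change was -1.40 ± 0.25 (SE; edgeR adjusted p = 0.000615). Lama4 had 1579, 1012, 1218, 832 and 495 CPM in VWAT SD, against 648, 627, 347, 589.8 and 1441 CPM in SWAT SD. Without the pair all VWAT SD values lay above all SWAT SD values, and the log2 fold change was 1.17 ± 0.20 (SE; edgeR adjusted p = 0.000313). Itga5 and Lamb1 were higher by 0.78 ± 0.22 and 0.75 ± 0.22 (edgeR adjusted p = 0.0296 and 0.0326), and Itga8, Itga2b and Lama1 lower by log2 fold changes of -1.57, -1.25 and -3.30.

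**Figure D5:**
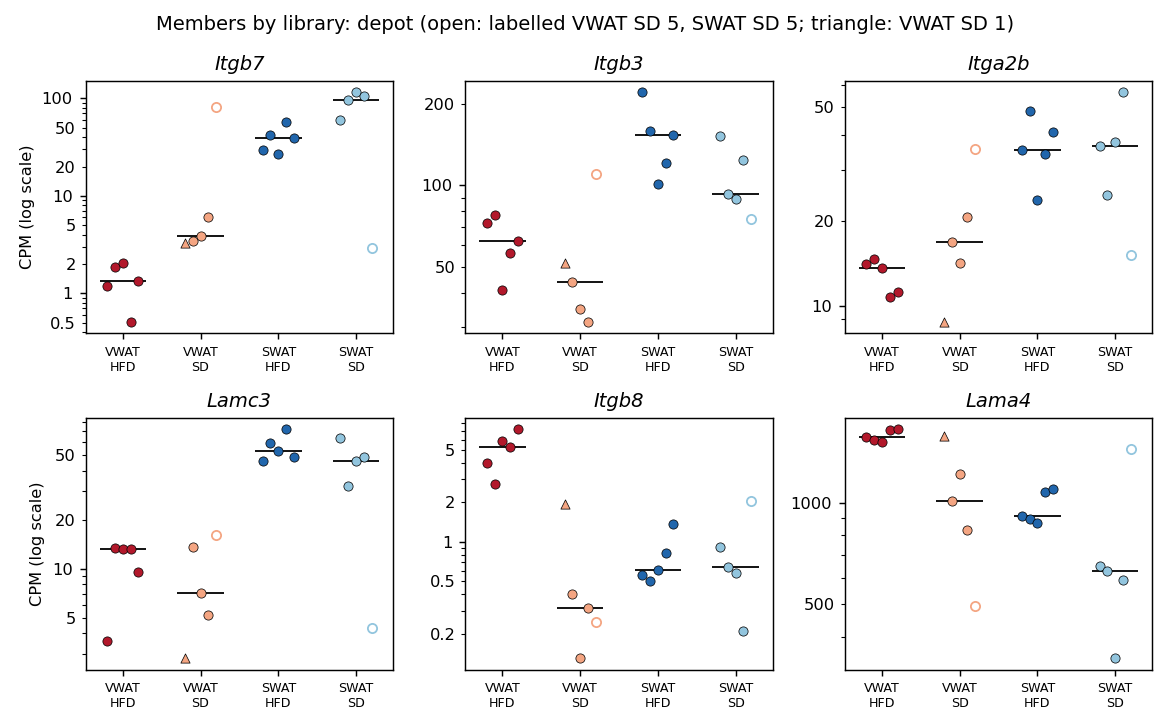
CPM on a log scale of 6 members in each library by group, with the group median as a bar; open circles mark the library labelled VWAT SD 5 and that labelled SWAT SD 5, and the triangle is VWAT SD 1. Itgb7, Itgb3, Itga2b and Lamc3 are lower and Itgb8 is higher in all VWAT HFD than in all SWAT HFD libraries, and Itgb7 in the library labelled VWAT SD 5 (81.5 CPM) lies at the level of the SWAT SD libraries.

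Genes that work with these receptors and laminins were followed from fixed lists. Of 27 adhesion adaptors that link integrins to actin, 5 rose and 13 fell in VWAT HFD relative to VWAT SD, which is 18.5% and 48.1% of the list, where 19.7% of all genes rose and 26% fell. Among them were Tln2, a talin (0.90, edgeR adjusted p = 0.00441), Src (-0.99, edgeR adjusted p = 0.00397) and Sharpin, an inhibitor of integrin activation (-0.89, edgeR adjusted p = 0.00411), all as log2 fold changes. With 18 GC-corrected libraries 3 of the adaptors rose and 1 fell, which is 11.1% and 3.70%, where 6.1% of all genes rose and 8.59% fell. The same shares of all genes stand beside the counts of the other lists in VWAT. Of 15 basement membrane partners of laminin, 7 rose and 0 fell, led by the collagen chains Col4a3 (1.55) and Col15a1 (1.21) and the laminin-binding nidogen Nid2 (0.98), each with an edgeR adjusted p of 0.00311 as log2 fold changes; with 18 GC-corrected libraries 10 rose and 0 fell. The median log2 fold change of the 15 was 0.61, against -0.03 over all genes. Of 18 tested ligands other than laminins, 5 rose and 3 fell, with Vcam1, the ligand of Itga4 pairs (1.31), the matricellular proteins Postn (1.37) and Tnc (1.57) having the smallest p, and Mfge8, an RGD ligand of Itgav pairs (-1.21), Tgfb1 (-1.04) and Vtn (-0.86) among those that fell. Of 9 non-integrin laminin receptors, Sdc4 (0.75) and Sdc2 (0.71) rose and Bcam (-1.59) and Cd151 (-1.02) fell. The values of these ligands and receptors are from the 20 libraries without GC correction. In SWAT HFD relative to SWAT SD, Postn (1.92, edgeR adjusted p = 0.0334) and Tnc (1.93, edgeR adjusted p = 0.0472) were the only genes of the 4 lists that passed with 20 libraries. Between depots on HFD, Thbs1 (2.09), Vcam1 (1.39), Tns3 (1.57), Actn1 (0.94), Cd151 (1.20), Sdc2 (0.91), Col4a6 (1.33) and Col15a1 (0.79) were higher in VWAT HFD than in SWAT HFD, and Thbs2 (-1.98), Col18a1 (-0.95), Agrn (-1.19) and Sdc1 (-0.97) were lower, as log2 fold changes in edgeR.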

How the data were processed

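RNA was measured by polyA RNA-seq in 20 libraries of sorted mouse adipocyte precursors, 5 per group; per the labels' protocols the libraries were strand-specific. The authors deposited raw read counts per gene; the submitters' processing notes name TopHat, HTSeq and mm9, while versions, annotation and strand setting stand as not given in the sources used here. Of 33929 table rows, 5 summary rows held 21.8 to 37.0% of the reads and 25 rows carried dates in place of symbols; both stayed out, leaving 33899 genes with 14.4 to 47.5 M reads per library. Same-group libraries differed beyond sampling noise, so each counted once.

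From the deposited counts, edgeR 4.0.16 (R 4.3.3, limma 3.58.1) fitted 1 quasi-likelihood model with a mean per group over 20 libraries (TMM, filterByExpr), with Benjamini-Hochberg adjustment over all tested genes at 0.05; the method was tested on simulated data. CPM uses plain totals; kb are exon unions of GENCODE M21 (GRCm38), which also gave GC content and neighbours. The SE is the log2 fold change over the root of F. DESeq2 1.42.0, other scalings and filters, a replicate block, a GC correction, the no-feature share as a covariate and leaving out libraries were alternatives. P-values measure the spread between pools.

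Members, lists and tests were chosen with earlier results of these data known. Values of every library were given for Itgb1, the most abundant chain of each class per kb, the largest called members of each comparison (up to 3 per direction, average log2 CPM of at least 1) and, where none was called, the 2 of smallest p; Itga11, Itgb6, Lama2, Lamb1 and a few repeats were added after their values were seen. Of the lists, at most 3 genes per direction were named, except on HFD between depots, where every called gene was. 1 member counts in the totals and is not reported here by name.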

Additional observations from a re-analysis of the deposited data

Results flagged for a closer look

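Single libraries far from the rest of their group were looked for in the 17 members named by rule, over 68 groups of 5 libraries, where chance alone flags about 1 in 20 groups; 8 were found. VWAT SD 1 stood high in its group for Itgb1 (685 CPM), Itgav (165 CPM) and Itgb8 (1.94 CPM). The library labelled VWAT SD 5 stood high for Itgb7 (81.5 CPM), Itgb3 (110.4 CPM) and Lamb3 (18.8 CPM), and the library labelled SWAT SD 5 stood high for Lama4 (1441 CPM). SWAT HFD 3 stood high for Itga8 (7.89 CPM). The depot markers of the library labelled VWAT SD 5 and that labelled SWAT SD 5 went against their labels, and VWAT SD 1 had the GC trend of the HFD libraries; the part of either in these values was not tested.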

How the results depend on the processing

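Counts of called members are given as higher and lower, with the counts over all 13659 to 14484 tested genes in square brackets. In VWAT HFD against VWAT SD (8 and 6 as reported), the no-feature share as a covariate gave 4 and 3 [662 and 1218]. DESeq2 gave 11 lower [3952], and the GC correction gave 1 lower with 20 libraries [1417] and with 18 [1234]. Leaving out 1 library gave 5 to 10 higher [1666 to 4288] and 4 to 12 lower [2716 to 4217]. With 18 GC-corrected libraries directions turned, among others, for Itga1 (-0.10), Lamb2 (0.15), Itga2b (0.48), Itgb4 (0.21) and Lama5 (0.61), as log2 fold changes. With 20 GC-corrected libraries they turned, among others, for Itga7 (0.011) and Itga2b (0.18). The cause was not tested. In SWAT HFD against SWAT SD (0 and 0), DESeq2 gave 3 and 3 [954 and 1068] and a fit of only the groups compared 3 higher [936]. There, 18 libraries gave 1 lower [41] and 18 GC-corrected libraries 1 higher [152]. Leaving out 1 library gave 0 to 3 [0 to 1716] and 0 to 3 [0 to 1646]. The interaction stayed at 0 and 0 when 1 library was left out. Between depots on SD (0 and 0), 18 libraries gave 3 and 6 [497 and 717] and 18 GC-corrected libraries 2 and 10 [784 and 990]. Leaving out 1 library gave 0 to 1 [0 to 171] and 0 to 3 [0 to 423]. Between depots on HFD (1 and 6), a fit of only the groups compared gave 7 higher [1331], 18 libraries 3 [649] and 18 GC-corrected libraries 5 higher [959]. Leaving out 1 library gave 1 higher throughout [195 to 641] and 4 to 7 lower [253 to 782].

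With the replicate number as a block, SWAT HFD against SWAT SD gave 2 and 2 [1017 and 1071]. VWAT HFD against SWAT HFD gave 1 higher (Itgb8) and 1 lower (Itgb3) [107 and 165]. In that comparison the other 5 members called without the block had an edgeR adjusted p of 0.0531 to 0.0774. The labels do not say that a number marks shared mice. Same-numbered libraries correlated at 0.0922 to 0.547 between VWAT HFD and SWAT HFD, where 4 of 5 pairs passed 0.1. Between VWAT SD and SWAT SD the correlations ran from -0.657 to 0.594. The -0.657 belongs to the pair labelled SD 5, whose depot markers went against the labels, and the next lowest was -0.261. Between diets within a depot they ran from -0.306 to 0.371. Whether the numbers pair the HFD depots is not settled. DESeq2 size factors in edgeR changed no call of a single member. Depth limits members with a mean under 1 CPM over all libraries (Itga4, Itgam, Itgax, Itgb6, Lama1), where a few reads set a fold change. Itgb8 averaged 1.83 CPM over all libraries, but 0.606 CPM in VWAT SD, 0.775 CPM in SWAT HFD and 0.880 CPM in SWAT SD. It had 82, 6, 2, 5 and 6 reads in VWAT SD 1 to 5, so the limit holds for its fold changes too.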
